A study of Mus musculus with 12 samples.

Results

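Bst2, which encodes the surface protein tetherin, and 8 other interferon-stimulated genes, Ifit1, Ifit3, Isg15, Oasl2, Ifitm3, Irf7, Irf9 and Stat2, were examined in the ribosome-bound RNA of hippocampal CA1 pyramidal neurons from Fmr1-/y mice, which lack the RNA-binding protein FMRP. The 9 genes were taken by symbol from the 24079 genes with deposited counts. They were chosen with the outcome in view: Bst2 for its level in this same comparison of genotypes, and the other 8 as the interferon-stimulated family to set beside it, so the genotype values below describe the genes and do not test the choice. All 9 had at least 15 reads over the 12 libraries, as did 17823 genes in all.

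Libraries of polyadenylated RNA came from 12 biological replicates, 6 wild-type and 6 Fmr1-/y. Each replicate combined the hippocampi of 4 to 6 adult mice aged 2 to 6 months on a C57BL/6J background, the wild-type mice being littermates. Both groups carried the RiboTag allele, which yields HA-tagged Rpl22 after Cre recombination, and the Wfs1-CreERT2 transgene, and both received tamoxifen before the tagged ribosomes were immunoprecipitated with an antibody to HA. The only labelled difference was the Fmr1 allele. Tagging follows the Wfs1 promoter, so a cell of another type enters the data through Wfs1 activity or through RNA carried along in the precipitate, and because each library pools several mice, no value belongs to a single animal. Replicates are separate pools. Each SD given below is the spread between them. Each SE of a log2 fold change comes from a fit whose estimate of variation also draws on other genes.

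Interferons are cytokines released by cells that sense viral or misplaced nucleic acid. Type I interferon binds the receptor chains Ifnar1 and Ifnar2, the kinases Jak1 and Tyk2 phosphorylate STAT proteins, Stat2 among them, and these join Irf9 in a complex that binds the interferon-stimulated response element (ISRE) in front of its target genes. Interferon gamma acts at another motif, the gamma-activated sequence (GAS). In the brain these genes are expressed at low levels without infection, most readily in microglia and vascular cells, and neurons can express them too.

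Because these genes are grouped by a shared control element, their promoter sequences are shown before the values. All 9 were found in the RefSeq promoter table of GRCm38.p6 (the mm10 build used for the counts), which covers 250 bases before to 50 after each annotated start, and both strands were searched for the ISRE letters GAAANNGAAA and the GAS letters TTCNNNGAA. The Bst2 sequence is the whole 250-base stretch before its start, with both motifs in capitals. The other lines give the stretch holding the ISRE letters, these in capitals, for each further member that had them.
Bst2 promoter, chr8:71537473-71537722, minus strand: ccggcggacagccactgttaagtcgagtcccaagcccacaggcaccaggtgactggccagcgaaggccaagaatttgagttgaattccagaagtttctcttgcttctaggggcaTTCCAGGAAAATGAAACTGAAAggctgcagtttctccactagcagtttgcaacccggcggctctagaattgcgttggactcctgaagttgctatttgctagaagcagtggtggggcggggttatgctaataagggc
Ifit1, chr19:34640785-34640814, plus strand: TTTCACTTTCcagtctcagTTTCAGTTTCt
Ifit3, farther match, chr19:34583363-34583392, plus strand: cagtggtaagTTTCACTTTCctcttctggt
Ifit3, nearer match, chr19:34583397-34583426, plus strand: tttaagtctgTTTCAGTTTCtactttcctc
Isg15, chr4:156200871-156200900, minus strand: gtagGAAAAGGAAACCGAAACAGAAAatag
Stat2, chr10:128270266-128270295, plus strand: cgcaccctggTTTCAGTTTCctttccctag
Ifitm3, chr7:141010714-141010743, minus strand: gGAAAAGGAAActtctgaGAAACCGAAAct

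ISRE letters were found in 6 of the 9 members, counted as genes. They were in 3.44% of all 32851 promoter windows in the table (1079 of 27025 genes). Of the 125 windows belonging to other genes of the interferon pathway, 36.8% had them (43 of 106 genes). In Bst2, 2 overlapping matches ran from 130 to 115 bases before the start, and a GAS match began 6 bases further out and overlapped them. Isg15 had 3 overlapping matches from 78 to 57 bases before its start. Ifit1 and Ifit3 each had 2 separate matches, all on the reverse strand, from 104 to 76 and from 156 to 113 bases before their starts. The start of the Ifit3 window is base 34583529, inside the gene interval given below, which opens further upstream at 34583119; the windows of Irf7 and Oasl2 also start inside their gene intervals. The single match in Stat2 lay far out, from 222 to 213 bases before the start, and those of Ifitm3 lay inside the transcript, from base 3 to base 29. Neither motif was found in the windows of Irf7, Irf9 and Oasl2. GAS letters were in 2 of the 9 members, Bst2 and Ifitm3. They were in 8.30% of all windows (2582 of 27025 genes) and 24.0% of those of the other pathway genes (30 of 106 genes). A match of letters is a description and does not show that a factor binds there.

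**Figure D1:**
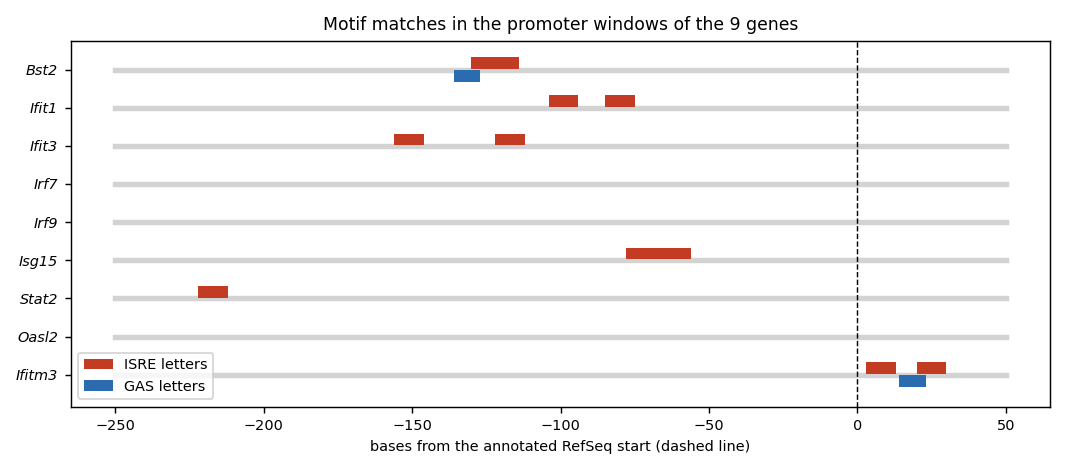
Matches to the ISRE letters (red) and the GAS letters (blue) in the promoter windows of the 9 genes, with the distance from the annotated RefSeq start in bases on the x axis and the windows drawn in grey. For Irf9 both annotated windows are laid over each other. The matches of Bst2, Ifit1, Ifit3 and Isg15 lie between 156 and 57 bases before the start, that of Stat2 lies further out and those of Ifitm3 lie after the start.

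The genotype labels were checked on Fmr1 (Entrez 14265, chrX:68678536-68717963), whose reads numbered 1971 to 2608 per wild-type library and 0 or 1 per Fmr1-/y library. Between 39400980 and 55745464 reads per wild-type library and between 43106629 and 65565479 per Fmr1-/y library lay on genes. All 8 markers of CA1 pyramidal cells fixed for the check were detected, among them Camk2a at 6207 ± 409 CPM (reads scaled to a common library size by the TMM method of edgeR; SD, n = 6) in wild-type libraries. Markers of other cells were present too, with Ttr, a choroid plexus transcript, at 8323 ± 2048 CPM. One library stood apart in this respect: Fmr1-/y replicate 1 had the highest sum of all 12 libraries for 5 of 10 marker lists, those of microglia, endothelial cells, pericytes and smooth muscle, astrocytes, and choroid plexus and ependyma.

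Per kilobase of transcript, Ifitm3 was the most abundant of the 9 genes in wild-type libraries at 24.0 ± 3.38 CPM per kb (SD, n = 6), a level above that of 83.0% of the 16612 genes with a length. Bst2 followed at 11.6 ± 1.02 CPM per kb, above 68.7% of genes, and Stat2 at 5.32 ± 0.357 CPM per kb, above 52.1%. These 3 genes did not overlap each other or the rest over the 6 wild-type libraries. Isg15 at 2.80 ± 0.770, Irf9 at 2.32 ± 0.370 and Ifit3 at 2.18 ± 0.450 CPM per kb came next, and neighbours among them overlapped. Oasl2 at 1.18 ± 0.265, Irf7 at 0.627 ± 0.248 and Ifit1 at 0.317 ± 0.0927 CPM per kb were lowest, again with each neighbour overlapping the next. Ifit1 lay above only 18.4% of genes, with 22 to 116 reads per library.

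Bst2 (Entrez 69550, chr8:71534255-71537472) holds enveloped virus particles at the surface of the cell that made them. Its level in wild-type libraries ran from 8.40 to 10.4 CPM with a median of 8.99, and in Fmr1-/y libraries from 10.7 to 18.1 CPM with a median of 14.2. Every Fmr1-/y library was above every wild-type library, with a narrow gap between them, and the wild-type libraries lay close together while the Fmr1-/y libraries spread more widely. Of the 17823 genes tested, 0.213% had all Fmr1-/y libraries above all wild-type libraries, and Bst2 was the only member among them. The means were 9.21 ± 0.804 and 13.9 ± 2.62 CPM (SD, n = 6 each), so that the Fmr1-/y mean was 150% of the wild-type mean and the log2 fold change was 0.59 ± 0.12 (SE).

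Whether Bst2 passed a threshold depended on the tool. In the quasi-likelihood test of edgeR its Benjamini-Hochberg adjusted p was 0.161, where 0.0224% of all genes passed 0.05, and in the Wald test of DESeq2 it was 0.0026 with the same log2 fold change of 0.59, where 0.471% of all genes passed. Bst2 ranked 12th of all genes by the p of edgeR. The highest value came from Fmr1-/y replicate 1, without which the log2 fold change was 0.50. In these bulk precipitates, a difference in the number of cells of a type and a difference in RNA per cell cannot be told apart.

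Among the other effectors, Ifit1 (Entrez 15957, chr19:34640889-34650009), which binds RNA whose cap lacks host methylation, had the largest log2 fold change of the 9. It ran from 0.550 to 1.13 CPM in wild-type libraries (median 0.848) and from 1.03 to 2.14 CPM in Fmr1-/y libraries (median 1.26). Replicates 1 and 4 of the Fmr1-/y group stood well above their other 4 libraries. Of these, replicates 2 and 3 lay a little above the highest wild-type library, and replicates 5 and 6 lay within the upper wild-type values. The means of 0.842 ± 0.246 and 1.49 ± 0.509 CPM (SD, n = 6 each) gave a log2 fold change of 0.82 ± 0.27 (SE), on few reads.

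Ifit3 (Entrez 15959, chr19:34583119-34588982), a partner of Ifit1 in the same family, ran from 3.13 to 5.32 CPM in wild-type libraries (median 3.68) and from 3.25 to 6.81 CPM in Fmr1-/y libraries (median 4.35). Fmr1-/y replicates 1 and 4 were again the highest, and the remaining 4 Fmr1-/y libraries lay within the wild-type range. The means were 3.81 ± 0.786 and 4.73 ± 1.42 CPM (SD, n = 6 each) and the log2 fold change was 0.31 ± 0.19 (SE), or 0.18 without Fmr1-/y replicate 1. Both Ifit genes have near copies in the same cluster on chromosome 19, and how reads shared between copies were counted was not tested, so their levels are uncertain to that extent.

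Isg15 (Entrez 100038882, chr4:156199424-156200818) encodes a ubiquitin-like protein that is attached to other proteins after interferon. It ran from 1.56 to 3.09 CPM in wild-type libraries (median 1.999) and from 1.60 to 3.57 CPM in Fmr1-/y libraries (median 3.23). Apart from Fmr1-/y replicate 3, which lay near the bottom of the wild-type range, the Fmr1-/y libraries were above 5 of the 6 wild-type libraries. The means were 2.12 ± 0.582 and 2.95 ± 0.760 CPM (SD, n = 6 each), a log2 fold change of 0.48 ± 0.22 (SE).

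Oasl2 (Entrez 23962, chr5:114896926-114912245), of the oligoadenylate synthetase family, ran from 2.73 to 4.59 CPM (median 3.71) in wild-type and from 2.84 to 6.54 CPM (median 4.09) in Fmr1-/y libraries, a log2 fold change of 0.23 ± 0.20 (SE). Only Fmr1-/y replicates 1 and 6 exceeded the wild-type range, and without replicate 6 the log2 fold change was 0.067. Ifitm3 (Entrez 66141, chr7:141009590-141010744), which blocks the entry of viruses from endosomes, ran from 14.1 to 20.6 CPM (median 16.0) in wild-type and from 12.2 to 23.9 CPM (median 16.4) in Fmr1-/y libraries, a log2 fold change of 0.14 ± 0.14 (SE). Its Fmr1-/y replicates 1 and 2 were highest, the medians nearly coincided, and the lowest value of all was also an Fmr1-/y library. Its log2 fold change was 0.037 without Fmr1-/y replicate 1, 0.066 without replicate 2, 0.23 without replicate 5 and 0.22 without wild-type replicate 4.

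**Figure D2:**
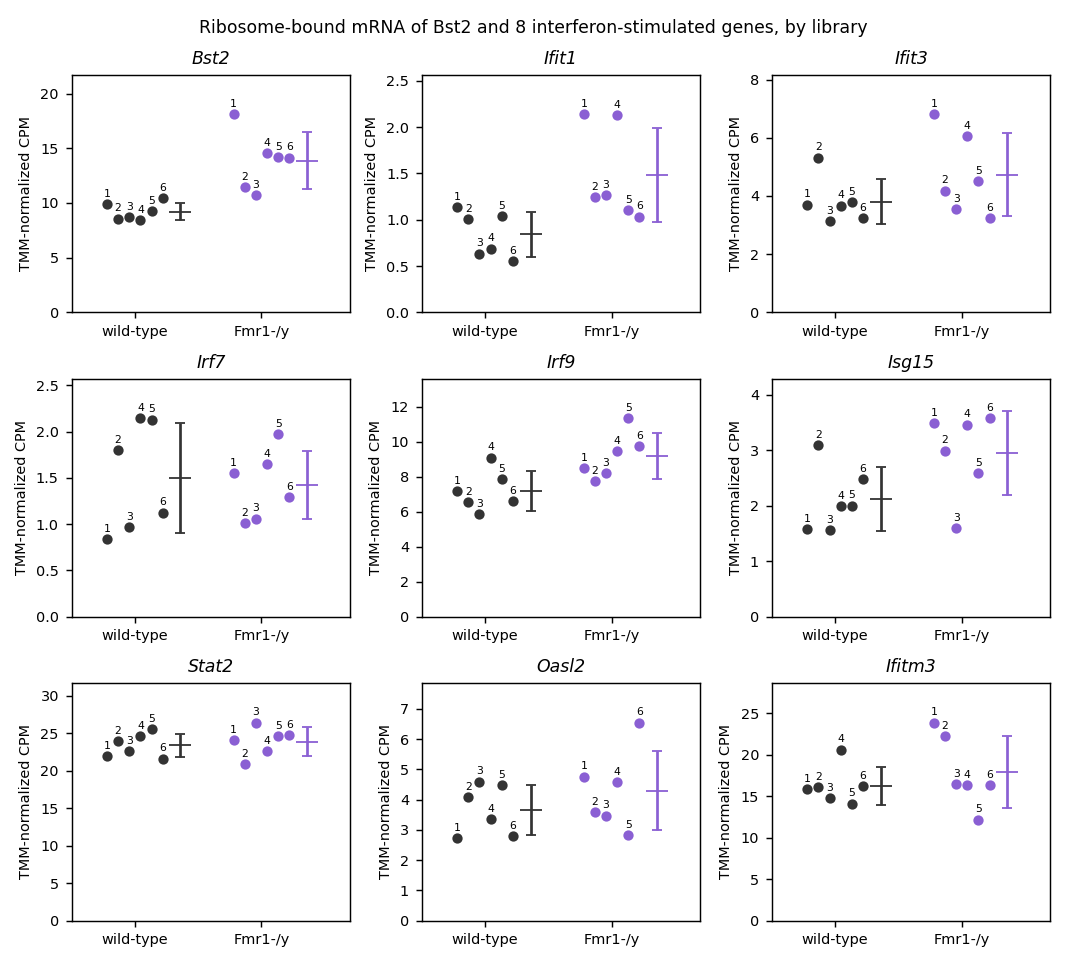
TMM-normalized CPM of the 9 genes in each library, wild-type in black and Fmr1-/y in purple, with the replicate number above each point and the mean ± SD beside the points. The groups are apart in Bst2 alone, where wild-type libraries end at 10.4 CPM and Fmr1-/y libraries begin at 10.7 CPM, and Fmr1-/y replicate 1 is the highest Fmr1-/y library in 4 genes.

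The 3 transcription factors divided. Irf9 (Entrez 16391, chr14:55603985-55610030), the DNA-binding partner of the STAT proteins, ran from 5.86 to 9.09 CPM in wild-type libraries (median 6.89) and from 7.73 to 11.3 CPM in Fmr1-/y libraries (median 8.98). Wild-type replicates 4 and 5 exceeded the lowest Fmr1-/y library, and the other 4 lay below all Fmr1-/y libraries. The means were 7.19 ± 1.15 and 9.17 ± 1.31 CPM (SD, n = 6 each), a log2 fold change of 0.35 ± 0.12 (SE).

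Stat2 (Entrez 20847, chr10:128270498-128292853), the other specific part of that complex, ran from 21.6 to 25.5 CPM (median 23.3) in wild-type and from 20.8 to 26.4 CPM (median 24.3) in Fmr1-/y libraries. The ranges nearly coincided, and the log2 fold change was 0.03 ± 0.08 (SE), from 0.00085 to 0.068 with each library left out. Irf7 (Entrez 54123, chr7:141263183-141266499), which drives transcription of the type I interferon genes, ran from 0.837 to 2.14 CPM (median 1.46) in wild-type and from 1.01 to 1.98 CPM (median 1.42) in Fmr1-/y libraries. The wild-type libraries fell into a low and a high set that enclosed all Fmr1-/y libraries, and the log2 fold change was -0.07 ± 0.27 (SE), with a sign that turned without wild-type replicate 4 or 5 or Fmr1-/y replicate 2 or 3 (-0.19 to 0.065 over all libraries left out).

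Over the 9 members, 8 had a log2 fold change above 0, as did 51.4% of all genes tested, and the median was 0.31 against 0.0042 over all genes and 0.022 over the 6123 genes of 1 to 20 CPM. Bst2, Ifit1, Irf9 and Isg15 had an unadjusted p under 0.05 with higher levels in Fmr1-/y libraries, where 4.29% of all genes did. None was lower at that threshold, where 3.67% of all genes were. After adjustment 0 of the 9 passed in edgeR and 1, Bst2, in DESeq2. Since these counts come from the comparison that led to the choice of Bst2 and its family, nothing further is read from them.

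The libraries that were high were not the same for every gene. Fmr1-/y replicate 1 was the highest of its group for 4 of the 9 members (Bst2, Ifit1, Ifit3 and Ifitm3) and among the top 2 for 6, while replicate 5 led for Irf7 and Irf9, replicate 6 for Isg15 and Oasl2, and replicate 3 for Stat2. Among wild-type libraries, replicate 4 was the highest for 3 members.

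Whether the other members followed Bst2 from pool to pool was examined on log2 CPM after each genotype mean was removed, which sets aside the difference between genotypes. Over the 12 libraries the closest was Isg15, with a Pearson r of 0.47 (within-genotype permutation test, two-sided, p = 0.168, adjusted over 8 relations p = 0.785) and a Spearman rho of 0.31 (p = 0.346, adjusted p = 0.861). Ifit3 had an r of 0.46 (permutation p = 0.225, adjusted p = 0.785) and a rho of 0.38 (permutation p = 0.269, adjusted p = 0.861). The other 6 ranged from -0.16 for Stat2 to 0.36 for Ifit1, and no relation passed. Without Fmr1-/y replicates 1 and 3, the libraries farthest from the median of Bst2, r became 0.02 for Isg15 and -0.07 for Ifit3, so the higher values rested on those libraries.

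Within Fmr1-/y libraries alone r was 0.71 for Isg15 and 0.72 for Ifit3, and within wild-type libraries -0.07 and -0.40 (n = 6 each). The difference between genotypes in these relations was not tested. Among all 36 pairs of members, 28 had an r above 0, with a median of 0.16 and a range of -0.28 to 0.79.

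**Figure D3:**
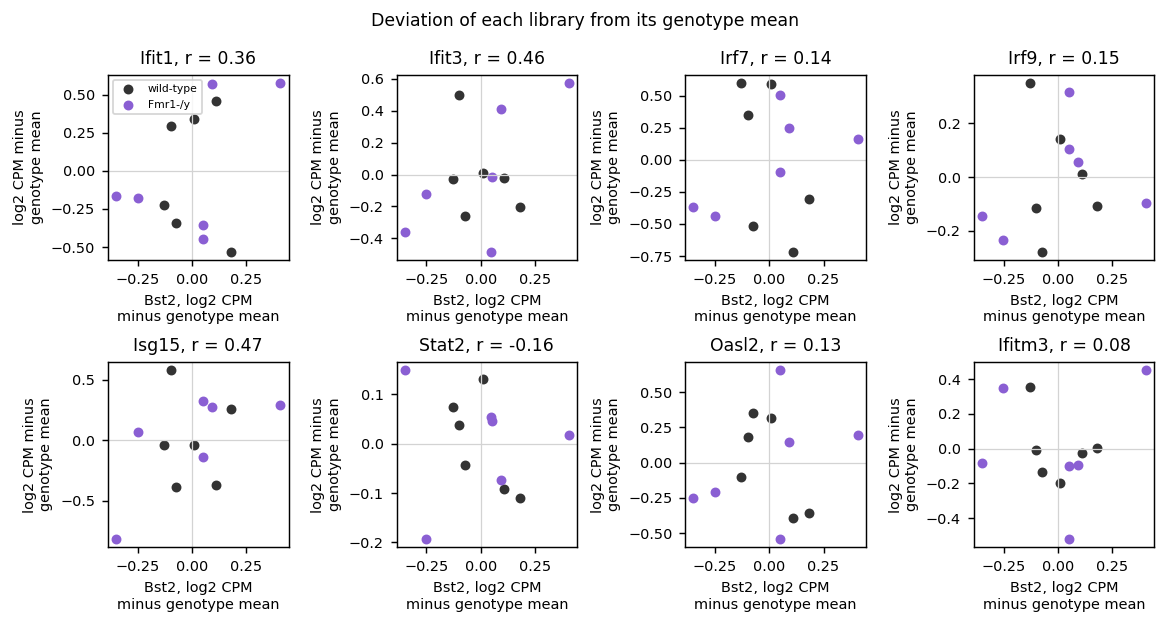
Deviation of each library from its genotype mean (log2 CPM) for Bst2 on the x axis and each of the 8 other members on the y axis, with wild-type libraries in black, Fmr1-/y libraries in purple and Pearson r over 12 libraries above each panel. The spread in Bst2 is set by Fmr1-/y replicate 1 at the right and replicates 2 and 3 at the left, and r runs from -0.16 for Stat2 to 0.47 for Isg15.

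The genes most like Bst2 by the same measure, among 13767 genes of at least 1 CPM, included no member and no gene of the interferon lists below. They were Psap (r = 0.91 over 12 libraries), a precursor of lysosomal activator proteins, Qsox1 (0.90), a secreted sulfhydryl oxidase, Atp6ap2 (0.88), an accessory protein of the vacuolar proton pump, Smpd1 (0.88), the lysosomal sphingomyelinase, Idh3a (0.86), Atp1b3 (0.86), As3mt (0.85), Gm5089 (0.85), Canx (0.85) and Pcca (0.85). These are the extremes of many genes and are given as a description, and their r was not computed without Fmr1-/y replicates 1 and 3. The nearest members stood far down the same order, Isg15 at rank 1512, Ifit3 at 1674 and Ifit1 at 2762.

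The rest of the pathway was read from lists of 134 other genes in the file, of which 112 had enough reads to be tested. Of these, 70 had a log2 fold change above 0 and 42 below, with a median of 0.083 and a range of -0.59 to 1.10. In edgeR's test 13 were higher and 1 lower at an unadjusted p under 0.05, 11.6% of the 112 being higher, where 4.29% and 3.67% of all genes were, and 0 passed after adjustment in edgeR or in DESeq2. Without Fmr1-/y replicate 1 the 13 became 6 (5.36% of the 112, where 3.12% of all genes were higher in the same fit), and with the endothelial markers as a covariate 1 (0.893%, where 1.43% of all genes were), so calls over all genes came down as well. No gene of these lists had all libraries of one genotype above all of the other.

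The interferons themselves were all but absent. Of 21 ligand genes, none reached 15 reads summed over the 12 libraries, and 15 had 0 reads. Ifnb1, the interferon most cells make first, had 0 reads, and Ifng had 6 over all libraries together. No difference in ligands was detectable at this depth.

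The receptors and kinases were present in both genotypes, and 3 of 9 were above 0 and 6 below (median log2 fold change -0.04). Over all genes 51.4% were above 0. Jak1, the kinase shared by the interferon receptors, was at 206 ± 12.3 CPM in wild-type pools against 195 ± 9.12 CPM in Fmr1-/y libraries (n = 6 each, ± SD, as for all values that follow). Ifnar2, the signalling chain of the type I receptor, was at 14.7 ± 1.24 and 16.8 ± 1.45 CPM. It was the only gene of these 9 with an unadjusted p under 0.05 in edgeR, where 4.29% of all genes were higher. Of the gamma receptor chains, Ifngr1 was at 13.4 ± 1.31 and 15.1 ± 2.18 CPM and Ifngr2 at 84.8 ± 7.28 and 81.1 ± 14.8 CPM, neither with an unadjusted p under 0.05.

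Of 11 further STAT and IRF genes, 6 were above 0 and 5 below (median 0.03), where 51.4% of all genes were above 0. Stat3, which mainly serves cytokines of the interleukin-6 type, was at 40.0 ± 3.42 CPM in wild-type pools against 45.1 ± 3.58 CPM in Fmr1-/y libraries. It was the only gene of this list with an unadjusted p under 0.05 in edgeR, where 4.29% of all genes were higher. Irf2bp2 at 70.8 ± 3.53 and 70.4 ± 2.24 CPM and Irf2bp1 at 33.9 ± 4.86 and 33.0 ± 3.67 CPM, both partners of the repressor Irf2, were the most abundant per length and lay within 3% of their wild-type means.

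Sensors and adaptors were split evenly, 8 above 0 and 8 below. Ticam1, the adaptor of the RNA receptor Tlr3, was the only gene of all these lists that was lower at an unadjusted p under 0.05, with 5.86 ± 0.553 CPM in wild-type pools against 4.40 ± 1.01 CPM in Fmr1-/y libraries. Ikbke, a kinase that activates Irf3 and Irf7, was at 1.02 ± 0.231 and 1.49 ± 0.317 CPM, on 29 to 93 reads per library. In this list 2 genes, Ikbke among them, were higher at an unadjusted p under 0.05, where 4.29% of all genes were. Tbk1, a relative of Ikbke, was at 49.2 ± 3.96 and 49.9 ± 4.50 CPM. Traf3, an adaptor upstream of these kinases, varied widely within both genotypes, at 184 ± 44.1 and 168 ± 51.3 CPM.

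Among 66 other interferon-stimulated genes tested, 47 were above 0 and 19 below, with a median of 0.16, where 51.4% of all genes were above 0. At an unadjusted p under 0.05, 6 were higher (Ifitm2, Gbp6, Lgals3bp, Ly6a, Slfn5 and Tor3a), where 4.29% of all genes were. Lgals3bp, a secreted glycoprotein, was at 43.9 ± 4.62 CPM in wild-type pools against 56.5 ± 12.2 CPM in Fmr1-/y libraries. Ly6a, a surface protein that in the mouse brain marks vascular endothelium, was at 10.5 ± 1.39 and 13.4 ± 1.75 CPM. The most abundant genes of this list per length, Ifi27 at 85.1 ± 8.44 and 96.5 ± 15.7 CPM and Ly6e at 166 ± 13.8 and 164 ± 18.3 CPM, did not have an unadjusted p under 0.05.

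The 4 genes that attach or remove Isg15 were all above 0 (median 0.26), as were 51.4% of all genes. Usp18, which removes Isg15 from proteins and also damps the type I receptor, was at 0.802 ± 0.254 CPM in wild-type pools against 1.26 ± 0.314 CPM in Fmr1-/y libraries. Ube2l6, the conjugating enzyme, was at 6.89 ± 0.862 and 8.16 ± 0.972 CPM, and Herc6, the mouse ligase, at 2.88 ± 0.667 and 3.46 ± 0.519 CPM. Usp18 and Ube2l6 were higher at an unadjusted p under 0.05, where 4.29% of all genes were. Of 6 inhibitors, 2 were above 0 and 4 below. Ptpn6, a phosphatase of blood cells and microglia, was at 3.36 ± 0.671 and 4.62 ± 0.827 CPM with an unadjusted p under 0.05, whereas Ptpn11 at 292 ± 10.2 and 286 ± 14.1 CPM, Ptpn2 at 29.3 ± 1.64 and 29.6 ± 3.70 CPM and Pias1 at 42.8 ± 2.47 and 40.1 ± 2.56 CPM were not.

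**Figure D4:**
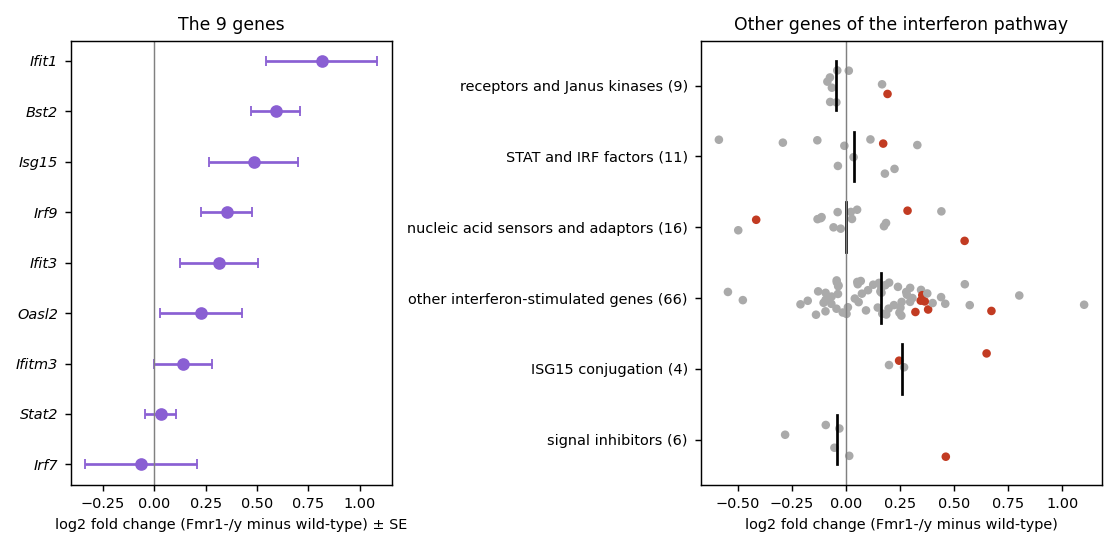
Left, log2 fold change (Fmr1-/y minus wild-type) of the 9 genes with its SE, ordered by size from 0.82 for Ifit1 to -0.07 for Irf7. Right, the log2 fold change of each tested gene of the other interferon lists (number of genes in parentheses, red where the unadjusted p was under 0.05 in edgeR, black bar the median of the list). The median is furthest above 0 for ISG15 conjugation (0.26) and other interferon-stimulated genes (0.16).

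Since several of these genes are known to be expressed in vascular and glial cells, markers of the cells a hippocampal precipitate can hold were summed per library. Endothelial markers summed to 89.3 to 123 CPM in wild-type pools against 106 to 157 CPM in Fmr1-/y libraries, 124% of the wild-type mean (two-sided exact permutation test, p = 0.026, adjusted over 10 lists p = 0.13). All 12 endothelial markers had a log2 fold change above 0, as did 51.4% of all genes. Of these markers 7 were higher at an unadjusted p under 0.05 in edgeR, where 4.29% of all genes were. Esam and Cdh5 had the largest values (0.62 and 0.51). Pecam1, a defining endothelial gene, was at 5.92 ± 0.899 and 7.63 ± 1.53 CPM. No marker of this list was at 0 in either genotype.

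Astrocyte markers summed to 2012 to 2343 CPM in wild-type pools against 2186 to 3165 CPM in Fmr1-/y libraries (117%, exact permutation p = 0.026, adjusted p = 0.13), with 10 of 10 above 0. Of these, 6 were higher at an unadjusted p under 0.05 in edgeR, where 4.29% of all genes were. Slc1a2, at 1238 ± 65.4 CPM in wild-type libraries, made up most of the astrocyte sum, which averaged 2245 CPM there. Markers of choroid plexus and ependyma summed to 6474 to 11976 and 8443 to 17696 CPM (135%, exact permutation p = 0.080, adjusted p = 0.19), with 7 of 8 above 0. Of these, 3 were higher at an unadjusted p under 0.05 in edgeR. Most of this sum was Ttr, at 8323 ± 2048 CPM in wild-type libraries, where the sum averaged 9009 CPM. Foxj1, Tmem212 and Ccdc153 of the same list had log2 fold changes of 0.11, 0.0024 and -0.014. Microglial markers summed to 159 to 181 and 164 to 215 CPM (105%, exact permutation p = 0.39, adjusted p = 0.49), with 9 of 12 above 0, Tmem119 at 8.85 ± 1.24 and 8.83 ± 1.38 CPM, and Trem2, the single marker of this list with an unadjusted p under 0.05, at 2.64 ± 0.266 and 3.72 ± 0.985 CPM. None of the 10 lists passed after adjustment, and the design cannot go below an exact p of 0.0022.

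Markers of CA1 pyramidal cells summed to 8396 to 10422 CPM in wild-type pools against 8105 to 9636 CPM in Fmr1-/y libraries (92.7%, exact permutation p = 0.093, adjusted p = 0.19), and 0 of 8 were above 0. Most of this sum was Camk2a, at 6207 ± 409 CPM in wild-type libraries, where the sum averaged 9573 CPM. Wfs1, whose promoter drives the Cre of this line, was at 1272 ± 175 and 1054 ± 103 CPM. In this list 2 genes, Wfs1 and Neurod6, were lower at an unadjusted p under 0.05 in edgeR (log2 fold change -0.27 and -0.19). Over all genes 3.67% were lower at that threshold. The remaining sums were at 119% of wild-type for pericytes and smooth muscle (6 of 8 above 0) and 113% for T cells and neutrophils (5 of 7). Those of CA2, CA3 and dentate granule cells were at 95.4% (3 of 8), interneurons at 93.5% (4 of 9) and oligodendrocytes at 88.9% (1 of 9). Adjusted p for these lists was 0.19 to 0.63 in the exact test. Nptx1, at 525 ± 7.29 CPM in wild-type libraries, made up most of the CA2, CA3 and dentate sum, which averaged 810 CPM there.

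Marker lists were also used as covariates in the fit, each as the mean log2 CPM of its genes rather than their sum. These covariates were not centred by genotype. With the endothelial markers the log2 fold change of Bst2 was 0.46 ± 0.16 (SE, adjusted p = 0.9996 in edgeR). With those of microglia it was 0.56 ± 0.12 (adjusted p = 0.26). With covariates added after the data were seen it was 0.45 ± 0.14 with astrocyte markers (adjusted p = 0.79), 0.48 ± 0.13 with those of choroid plexus and ependyma (adjusted p = 0.56), and 0.47 ± 0.16 with endothelial and microglial markers together (adjusted p = 0.999). With the endothelial covariate the adjusted p was 0.9996 for each of the 9 members, and the unadjusted p of Bst2 was 0.0095 in edgeR's test. The other members moved in both directions. Ifit3 went from 0.31 to 0.05 with the endothelial and 0.04 with the astrocyte covariate, and Ifitm3 from 0.14 to -0.11 and -0.21. Oasl2 went from 0.23 to 0.53 with the endothelial, 0.30 with the astrocyte and 0.66 with the endothelial plus microglial covariates, and Irf9 from 0.35 to 0.27, 0.42 and 0.21. Ifit1 was at 0.68 and 0.57 and Isg15 at 0.43 and 0.32 with the endothelial and the astrocyte covariate. Over the 12 libraries, with genotype means removed, the r of Bst2 with the endothelial sum was 0.41 (permutation p = 0.254, adjusted over 10 lists p = 0.363) and the rho 0.36 (permutation p = 0.293, adjusted p = 0.531). Over the 10 lists r ran from -0.54 for oligodendrocytes (rho -0.60, permutation p = 0.0490 for rho, adjusted p = 0.490) to 0.50 for astrocytes, with an adjusted p of 0.363 or more for each r. The part of these cells in the levels of the 9 genes was not tested beyond these values.

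**Figure D5:**
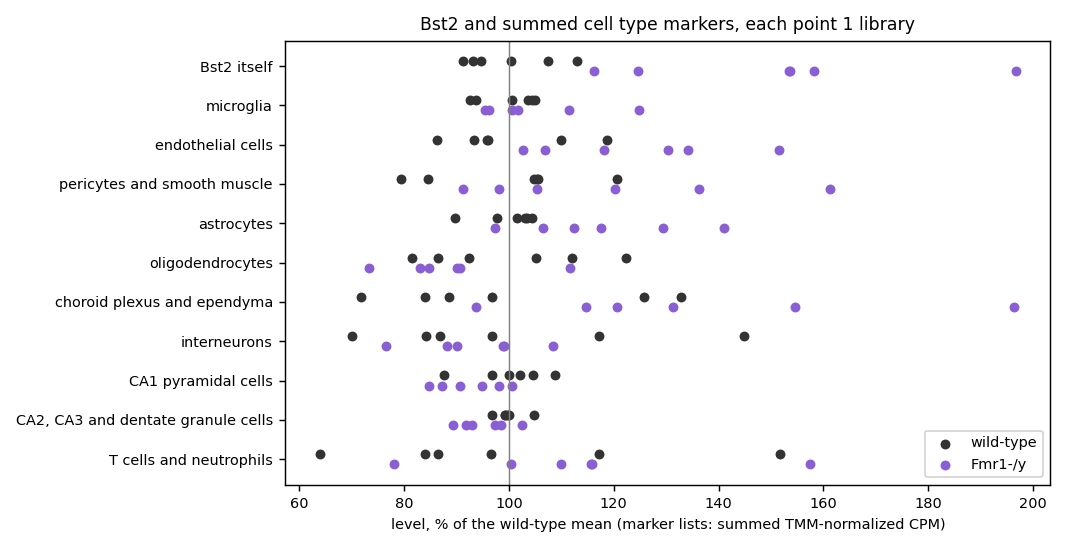
Level of Bst2 and the summed CPM of 10 cell type marker lists in each library, as a percentage of the wild-type mean of the same row, with wild-type libraries in black and Fmr1-/y libraries in purple. The genotypes are apart for Bst2 and overlap in every marker list, and the endothelial, astrocyte and choroid plexus rows are shifted to 124%, 117% and 135% of wild-type on average.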

How the data were processed

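Pools of 6 wild-type and 6 Fmr1-/y replicates gave the ribosome-bound RNA that was sequenced. The authors aligned stranded reads (TopHat 2.1.1, Bowtie 2.2.8) to mm10 with UCSC genes, counted them with HTSeq 0.6.1p1, and deposited raw counts of 24079 genes without normalization. Groups follow the labels. Genes with at least 15 reads in total (the study's filter; 17823) were tested with edgeR 4.0.16 (TMM, quasi-likelihood, no covariate, Benjamini-Hochberg, threshold 0.05) in R 4.3.3. The study used DESeq2, which is an alternative here (1.42.0), as are limma 3.58.1 voom, other normalizations and filters, a replicate block, marker covariates and leaving out each library. The standard error is the fold change divided by the square root of F. Scripts were tested on simulated data. No 2 libraries of the same genotype agreed within sampling noise (lowest chi-square per degree of freedom 10.5 over 30 pairs).

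The members and lists were chosen with earlier results of these data known. Named are the 9 members, the 2 most abundant genes per length and the 2 of smallest p of each list, and the 10 most like Bst2. The values of 1 gene under this rule are not reported here. Further genes with an unadjusted p under 0.05, Ifnb1, Ifng and single markers were named after their values were seen. Lengths are GENCODE exon lengths, and positions and promoters are RefSeq's. Correlations used 100000 permutations, and marker sums all 924 splits (scipy 1.17.1).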

Additional observations from a re-analysis of the deposited data

Results flagged for a closer look

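Among 84 groups of 6 libraries searched, 4 held a library far from the other 5, with the gap to its nearest neighbour a large part of the group's range (Dixon's test at 95%), where chance gives about 4.2. Ifit3 was at 5.32 CPM in wild-type replicate 2 and at 3.13 to 3.78 CPM in the other wild-type libraries (gap over range 0.704). Ifitm3 was at 20.6 CPM in wild-type replicate 4 against 14.1 to 16.2 CPM (0.675). Ptpn6 was at 6.22 CPM in Fmr1-/y replicate 1 against 3.88 to 4.66 CPM (0.666), the replicate with the highest microglial and endothelial sums. Ube2l6 was at 10.03 CPM in Fmr1-/y replicate 2 against 7.22 to 8.17 CPM (0.662).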

How the results depend on the processing

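The log2 fold change of Bst2 was above 0 under all 25 alternatives, from 0.45 to 0.65, and from 0.50 to 0.65 when each library was left out; DESeq2 gave 0.59 and moved it past the threshold, so that 1 of 9 members passed there and 0 in the other fits. Over the 9 members, 215 of 225 values kept their direction. Irf7 reversed to 0.060 in voom, to 0.024 with astrocyte markers, and ranged from -0.19 to 0.065 with libraries left out. Ifitm3 reversed to -0.11, -0.014, -0.21 and -0.021 with endothelial, microglial, astrocyte, and endothelial plus microglial covariates. The 13 interferon pathway genes higher at an unadjusted p under 0.05, a count added after the data were seen, became 1 with the endothelial covariate (0.893% of 112, against 1.43% of all genes in that fit), 5 with choroid plexus (4.46% against 2.93%), 2 with astrocyte (1.79% against 2.64%) and 1 with both endothelial and microglial covariates (0.893% against 1.83%), and 6 to 15 with libraries left out (all genes 3.12% to 5.08%). Marker lists past the threshold numbered 0, and 0 to 1 with libraries left out, the 1 being without Fmr1-/y replicate 3. The causes were not tested beyond the covariates.

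With the replicate number as a replicate block, the log2 fold change of Bst2 was 0.57 and 0 members passed. Deviations of same-numbered libraries correlated at 0.025 on average (-0.08 to 0.09), and at 0.099 (-0.24 to 0.35) over the 12788 genes of mean log2 CPM over 1. Not every pair was above 0.1, so the numbers were not treated as pairing the pools, and whether the pools were matched is not stated in the sources used here. Ifit1, Irf7, Usp18 and Ikbke rest on few reads, which limits their precision.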
